A study of Rattus norvegicus with 6 samples.

Results

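The 9 genes described here encode subunits of the transcription factor NF-kappa-B and the inhibitors and feedback regulators that the factor itself switches on. They were chosen by symbol (Nfkb1, Nfkb2, Relb, Nfkbia, Nfkbiz, Bcl3, Tnfaip3, Birc3 and Ptgs2), and all 9 were among the 25399 genes listed in the files. Their raw UMI counts, each UMI standing for 1 captured RNA molecule, were read in 6 droplet libraries of single brain cells from Sprague Dawley rats, made from the 3′ ends of transcripts. The series title places the tissue in the pons, in the brainstem. The tested rats had a pontine infarction (3 libraries) and were set against sham rats (3 libraries). Both groups carried the age label of postnatal day 21, which does not say whether the operation or the sampling fell on that day, and the sources used here do not say how long after the infarction the cells were taken. One label speaks of 3 operated rats without tying them to libraries, so p-values measure the spread between libraries, which may be technical.

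NF-kappa-B dimers rest in the cytoplasm, held by inhibitor proteins of the I-kappa-B family. Cytokine, danger or antigen receptors activate a kinase that marks the inhibitor for destruction, and the freed dimer enters the nucleus. Among the first genes it switches on are its own inhibitor and several enzymes that shut the receptor complexes down, so transcripts of these genes are a common readout of recent signalling through the pathway in microglia, macrophages and endothelium.

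Kept cells numbered 37853 in 31 clusters, of which 29 were named from fixed marker genes as X-like classes, and total UMI counts per library were 63847395 to 66748442 in infarction and 56416475 to 69924334 in sham. The make-up of the groups differed. Infarction libraries held 974 to 2051 neutrophil-like and 1655 to 2348 macrophage-like cells, against 12 to 44 and 115 to 134 in sham libraries. Smooth muscle-like cells were 0 in every infarction library, against 2390 to 2904 in sham libraries. Cells with the markers of neurons were 0 to 2 per infarction library and 26 to 154 per sham library. Across the libraries 177 cell barcodes occurred in 2 or more. Levels are given as CPM, the UMIs of a gene scaled to the UMI total of its class in that library, in the order of libraries 1, 2 and 3. Log2 fold changes are infarction over sham on TMM-adjusted totals, given with their SE, and adjusted p-values come from edgeR's quasi-likelihood test over all genes tested in a class (n = 3 libraries per group). The 2 scales are not the same. Raw totals in place of TMM would shift a log2 fold change by -0.47 over all cells, by -0.44 in macrophage-like cells, by -0.28 in oligodendrocyte precursor-like cells and by -0.18 in endothelial-like cells. This turned the sign of 1 member in 1 class, Tnfaip3 in macrophage-like cells, which was not called.

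Promoter sequence is shown because 6 members share a binding motif of the factor there. The genes were chosen as subunits and known targets of the factor, so the motif is not independent of that choice. RefSeq promoter windows of the GRCr8 build, from 250 bases before to 50 after the start of transcription, matched 7 of the 9 genes by symbol. The kappa-B consensus, the DNA sequence bound by the factor, was searched on both strands. It occurred in 6 of the 7 windows and in 2515 of all 33469 windows (7.51%). The windows of the 3 genes below hold it in capitals within the 250 bases before the start. Nfkbia lies on the minus strand at chr6:78597073-78597322, Nfkbiz on the plus strand at chr11:58251471-58251720 and Tnfaip3 on the minus strand at chr1:15543980-15544229. A match describes the letters and is not a measured binding site.
Nfkbia: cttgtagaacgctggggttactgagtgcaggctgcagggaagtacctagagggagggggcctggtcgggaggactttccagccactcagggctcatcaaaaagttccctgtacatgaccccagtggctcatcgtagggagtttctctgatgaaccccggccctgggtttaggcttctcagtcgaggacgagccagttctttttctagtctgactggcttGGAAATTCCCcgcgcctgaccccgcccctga
Nfkbiz: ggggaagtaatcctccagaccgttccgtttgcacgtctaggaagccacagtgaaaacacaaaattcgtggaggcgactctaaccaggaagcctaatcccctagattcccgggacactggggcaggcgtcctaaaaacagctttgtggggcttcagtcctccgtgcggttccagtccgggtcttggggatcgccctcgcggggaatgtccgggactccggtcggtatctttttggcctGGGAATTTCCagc
Tnfaip3: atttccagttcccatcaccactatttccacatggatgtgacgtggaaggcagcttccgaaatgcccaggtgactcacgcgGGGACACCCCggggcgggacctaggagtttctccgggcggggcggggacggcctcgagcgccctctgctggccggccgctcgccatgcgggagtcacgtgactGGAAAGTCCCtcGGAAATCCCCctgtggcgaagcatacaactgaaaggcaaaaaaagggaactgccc
Tnfaip3 was the member with the most matches, 3 in its window. The 10-base matches of the other 3 members are given for comparison with these.
Nfkb1, bases 4 to 13 after the start: GGGAATTTCC
Nfkb2, bases -20 to -11: GGGACTTTCC
Bcl3, bases -38 to -29: GGGAAGTCCC
The window of Ptgs2 held 0 matches. The same 10 letters, GGGAATTTCC, occur in Nfkbiz, in Nfkb1 and, read on the opposite strand, in Nfkbia.

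Over all kept cells all 9 genes were called higher, against a background of 33.2% of the 14613 tested genes called higher and 38.1% called lower. Each of the 9 was higher in every infarction library than in every sham library, but the share of all genes without overlap was not counted. Birc3, an anti-apoptotic ubiquitin ligase of the TNF receptor complex, stood at 37.1, 22.3 and 26.2 CPM in infarction and at 1.06, 1.05 and 2.06 CPM in sham (log2 fold change 4.84 ± 0.378, adjusted p = 9.80e-05). Bcl3, a nuclear I-kappa-B protein that binds the p50 and p52 subunits, rose by 4.46 ± 0.249 on the log2 scale (adjusted p = 3.14e-05). The smallest rises were those of the subunit genes Nfkb1 (1.40 ± 0.159, adjusted p = 0.000425) and Nfkb2 (1.56 ± 0.177, adjusted p = 0.000423). Tnfaip3 rose by 2.73 ± 0.460 (adjusted p = 0.00234), or by 3.32 without sham 3. In these sums fewer cells of a type and less RNA per cell cannot be told apart, and the mix of cells differed as given above. Immediate early and heat shock genes, which cell dissociation also induces, were lower as a sum over all cells. The 16 genes together had 3569 to 4000 CPM in infarction and 11209 to 11719 CPM in sham. Singly they were mixed, with 9 of 15 tested called lower and 4 called higher.

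The UMIs came from different cells in the 2 groups. In infarction, macrophage-like cells held the largest share for 8 members, from 30.8% ± 6.89 of Bcl3 UMIs (SD, n = 3 libraries) to 40.5% ± 11.1 of Birc3 UMIs, while they held 50.2% of all UMIs. The exception was Nfkbiz, with 40.3% ± 4.93 in microglia-like cells. Neutrophil-like cells held 4.76% of all UMIs in infarction, but 29.1% ± 5.76 of Ptgs2, 23.4% ± 9.01 of Nfkbia and 18.2% ± 6.43 of Birc3 UMIs. They were poor in RNA, with a median of 1930 UMIs per cell. By number they were 2051, 1405 and 974 of 5873, 7255 and 5941 kept cells. Their share of cells was thus well above their share of all UMIs. In sham, Tnfaip3 UMIs lay mainly in microglia-like cells (67.6% ± 17.8), and Ptgs2 UMIs in fibroblast-like (40.2% ± 2.66) and endothelial-like cells (30.3% ± 12.5). The sham shares rest on few molecules, 240 UMIs of Tnfaip3 and 504 of Ptgs2.

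**Figure D1:**
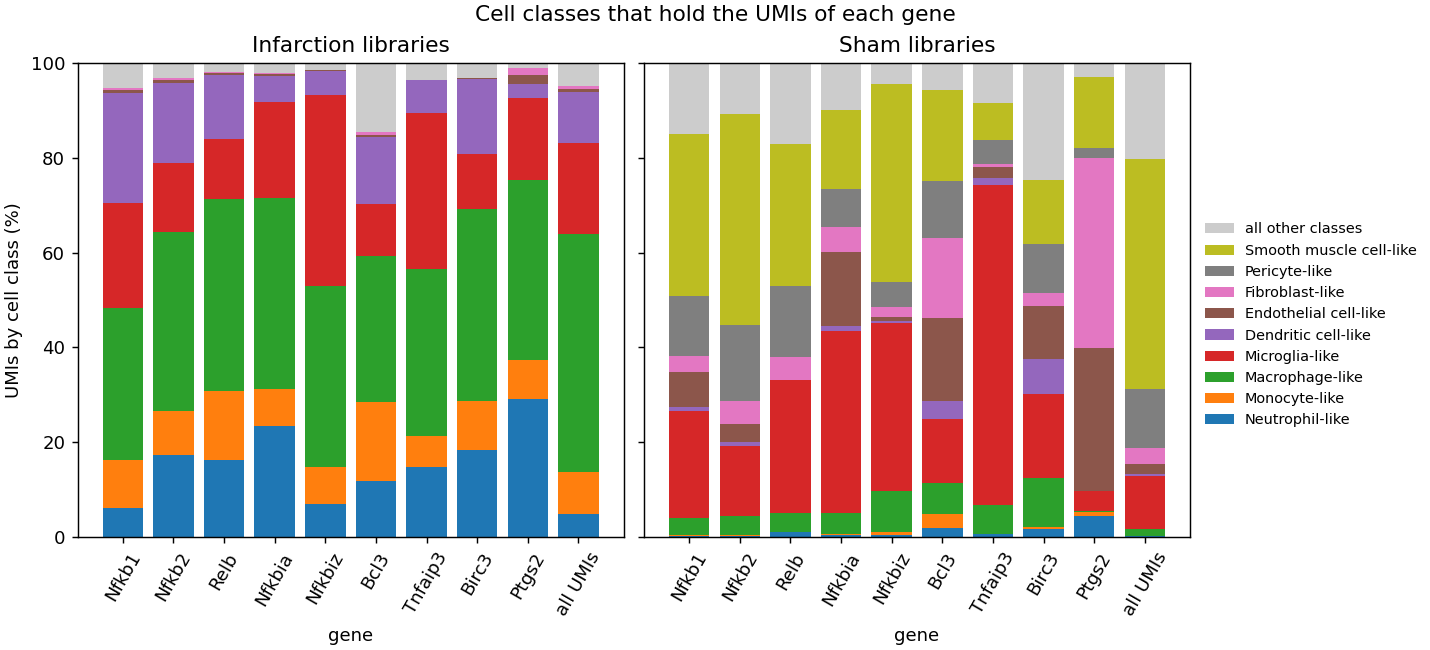
Stacked bars give, for each gene and for all UMIs, the mean share (%) of UMIs held by each cell class over 3 infarction libraries (left) and 3 sham libraries (right). Neutrophil-like cells hold 29.1% of Ptgs2 UMIs in infarction, where they hold 4.76% of all UMIs, and fibroblast-like cells hold 40.2% of Ptgs2 UMIs in sham.

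Across classes with at least 20 cells in all 3 libraries of a group, neutrophil-like cells had the highest mean level in infarction for 6 members, Nfkbia, Nfkb2, Relb, Tnfaip3, Birc3 and Ptgs2. Nfkbia stood at 6750, 4378 and 4896 CPM there, and the next class, microglia-like cells, at 1212, 916 and 1199 CPM. The ranges of the first and second class did not meet for Nfkbia, Nfkb2, Relb and Birc3, but they did for Tnfaip3, where T or NK cell-like cells followed closely, and for Ptgs2, where endothelial-like cells followed. Nfkb2, the precursor of the p52 subunit, reached 106, 98.5 and 102 CPM in neutrophil-like cells, against 68.6, 41.5 and 18.7 CPM in T or NK cell-like cells. Nfkbiz was highest in microglia-like cells at 495, 307 and 373 CPM, above neutrophil-like cells at 283 ± 10.3 CPM. Nfkb1 was highest in dendritic cell-like cells at 191, 175 and 206 CPM, and its range met that of T or NK cell-like cells at 192, 141 and 104 CPM. Bcl3 was highest in an unnamed cluster led by Siglech, Spib and Ptcra, genes of plasmacytoid dendritic cells, at 216, 218 and 145 CPM, and all other classes were below that range. Since clusters were formed from the same counts, these orders between classes are descriptions without a test. They are also not orders per cell. Neutrophil-like cells had a median of 1930 UMIs, against 16401 and 11239 in the macrophage-like clusters led by Apoc1 and by Arg1. In infarction 50437 Nfkbia UMIs came from 2051, 1405 and 974 neutrophil-like cells, and 39225 from 860, 1697 and 987 microglia-like cells. For Tnfaip3 these classes gave 206 and 437 UMIs.

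In sham the order was different. Endothelial-like cells were first for Nfkbia (1572 ± 361 CPM), Nfkb1 (160 ± 7.07 CPM), Bcl3 (12.5 ± 2.32 CPM) and Ptgs2 (46.7 ± 30.5 CPM). For Nfkbia and Nfkb1 their range lay above those of the other 9 classes compared, whereas for Ptgs2 it met that of fibroblast-like cells at 37.4 ± 8.31 CPM. Sham macrophage-like cells were first for Nfkb2 at 34.8 ± 1.16 CPM, and sham microglia-like cells for Tnfaip3 at 10.8 ± 5.77 CPM, a range that met the next class. Smooth muscle-like cells, the largest sham class, had 72.7 ± 4.15 CPM of Nfkbia, 0.348 ± 0.139 CPM of Birc3 and 0.877 ± 0.514 CPM of Ptgs2.

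**Figure D2:**
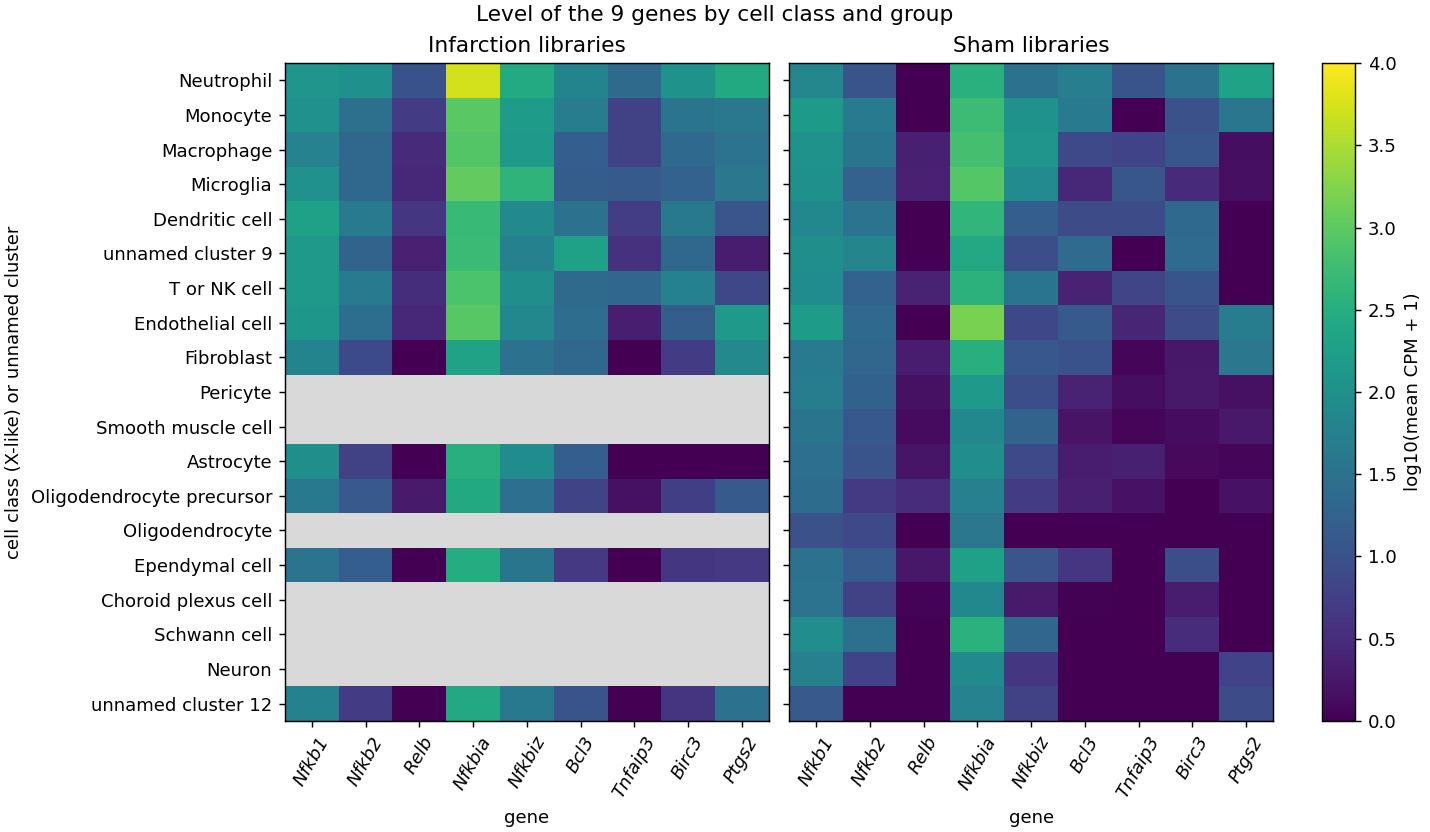
Colour gives log10(mean CPM + 1) of each gene in each cell class, with infarction on the left and sham on the right, averaged over the libraries with at least 20 cells of the class, and grey marks classes with no such library. Neutrophil-like cells stand out for Nfkbia, Nfkb2, Birc3 and Ptgs2 in infarction, where their Nfkbia mean is 5341 CPM.

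Of the 20 classes with markers, 5 had at least 20 cells in every library and could be tested. Microglia-like cells had 4 of 9 members called higher, against a background of 32.1%, and 0 called lower, against 31.2%. Macrophage-like cells had 4 of 9 higher (28.2%) and 1 lower (25.8%). T or NK cell-like cells had 5 of the 6 members that passed the filter on low counts higher (4.86%) and 0 lower (2.71%). Endothelial-like cells had 1 of 5 higher (6.66%), and oligodendrocyte precursor-like cells 1 of 2 (14.2%). On their sham levels alone, Bcl3 and Birc3 in T or NK cell-like cells and Nfkbiz in endothelial-like cells would not have passed that filter. The same holds for Ptgs2 in microglia-like and macrophage-like cells. Such members could hardly be called other than higher, so these counts are no support for a rise of the members as a group. In microglia-like and macrophage-like cells the share called was not far above the background and says little of the members as a group.

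**Figure D3:**
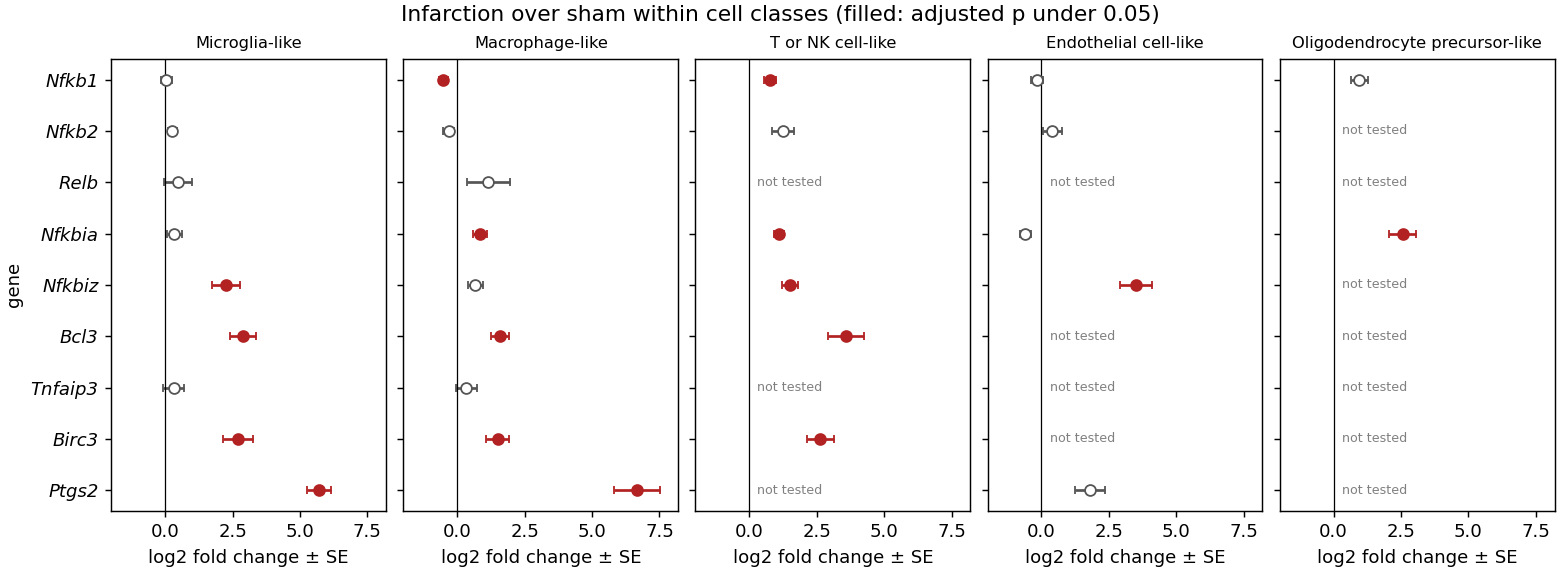
Points are log2 fold changes of infarction over sham with SE bars from edgeR, 1 panel per tested cell class, filled where the adjusted p is under 0.05, and genes with too few counts are marked as not tested. Ptgs2 has the largest values in microglia-like and macrophage-like cells (its macrophage-like value rests on 1 sham UMI), and Nfkb1 is the only filled point below 0.

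Among the subunits, Nfkb1 encodes the p105 precursor of p50. In macrophage-like cells it stood at 62.9, 62.2 and 47.7 CPM in infarction and at 138, 99.2 and 98.4 CPM in sham. The groups did not overlap, and it fell by 0.51 ± 0.172 (adjusted p = 0.0260), a call lost without sham 1 (-0.28, adjusted p = 0.218) and without sham 2 (adjusted p = 0.0729). T or NK cell-like cells went the other way, with 192, 141 and 104 CPM in infarction and 82.9, 80.2 and 101 CPM in sham. There it rose by 0.76 ± 0.222 (adjusted p = 0.0420). That call held without infarction 3, but not without any other library (adjusted p 0.0834 to 0.163) and not with DESeq2 (adjusted p = 0.153). In microglia-like cells the groups overlapped, at 138, 84.4 and 91.7 CPM and 104, 97.1 and 101 CPM (0.05 ± 0.188, adjusted p = 0.850), and endothelial-like cells were at 128 ± 35.9 and 160 ± 7.07 CPM (adjusted p = 0.715).

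Nfkb2 was called by edgeR in 0 of the 4 classes where it was tested, and its unadjusted p was under 0.05 in 1 of them. That was T or NK cell-like cells, with 68.6, 41.5 and 18.7 CPM in infarction and 18.7, 16.9 and 16.4 CPM in sham (1.24 ± 0.421, adjusted p = 0.0859, or 0.00418 without infarction 3). Infarction 3 lay only just above the highest sham library. In macrophage-like cells Nfkb2 lay lower in every infarction library (24.1, 20.4 and 17.1 CPM) than in sham (35.9, 35.0 and 33.6 CPM), with a log2 fold change of -0.32 ± 0.197 (adjusted p = 0.189). Relb, the partner of p52 in the non-canonical pathway, was scarce. It gave 471 UMIs in all infarction cells and 83 in all sham cells, and within microglia-like cells 1.81 ± 0.883 and 1.36 ± 0.520 CPM (adjusted p = 0.435).

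The inhibitors differed by class. Nfkbia encodes I-kappa-B-alpha, the main cytoplasmic inhibitor. T or NK cell-like cells had 839, 765 and 639 CPM in infarction and 386, 261 and 452 CPM in sham, without overlap, and the gene rose by 1.10 ± 0.175 (adjusted p = 0.000525). In macrophage-like cells the groups overlapped, 1132, 625 and 772 CPM in infarction and 672, 504 and 772 CPM in sham. The TMM-adjusted rise of 0.83 ± 0.259 (adjusted p = 0.0346) was 0.37 without infarction 1 (adjusted p = 0.0644) and was also lost without infarction 3, sham 1 or sham 2 (adjusted p 0.0682 to 0.0895), without the filter on low counts and at 10% mitochondrial UMIs. Microglia-like cells were at 1212, 916 and 1199 CPM in infarction and 1107, 560 and 955 CPM in sham (0.33 ± 0.279, adjusted p = 0.348). Endothelial-like cells had a value on the other side of 0, with 1265, 710 and 801 CPM in infarction and 1633, 1185 and 1898 CPM in sham (-0.59 ± 0.221, adjusted p = 0.0972, and 0.0259 without infarction 1 or 0.0365 without sham 2).

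Nfkbiz encodes I-kappa-B-zeta, a nuclear member of the family needed for a secondary set of inflammatory genes. Microglia-like cells had 495, 307 and 373 CPM in infarction and 141, 42.3 and 69.6 CPM in sham. It rose there by 2.26 ± 0.518 (adjusted p = 0.0170), and the adjusted p was 0.0603 without infarction 1 and 0.0619 without sham 3. In T or NK cell-like cells it rose by 1.50 ± 0.294 (adjusted p = 0.00345), at 129, 66.7 and 92.0 CPM in infarction and 20.7, 35.0 and 44.5 CPM in sham. Endothelial-like cells had 69.7, 117 and 24.3 CPM in infarction and 7.57, 7.0 and 4.38 CPM in sham, from 67 and 25 UMIs. The rise was 3.51 ± 0.589 (adjusted p = 0.00560), and 2.88 without infarction 2. Macrophage-like cells overlapped at 140 ± 39.5 CPM in infarction and 121 ± 34.8 CPM in sham (0.66 ± 0.276, adjusted p = 0.0799).

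Bcl3 was called higher in each of the 3 immune classes tested, as was Birc3. In microglia-like cells it stood at 21.7, 10.3 and 10.7 CPM in infarction and at 2.32, 0.987 and 2.42 CPM in sham (2.90 ± 0.476, adjusted p = 0.00146). In macrophage-like cells it stood at 16.5, 15.8 and 11.8 CPM and at 10.6, 4.67 and 4.98 CPM (1.58 ± 0.343, adjusted p = 0.00229). The groups did not overlap in either class. T or NK cell-like cells had 37 UMIs in infarction and 3 in sham (adjusted p = 0.00172), a ratio of 13.2 with an exact 95% counting interval of 4.17 to 66.8. Endothelial-like cells had 25.6 ± 16.1 CPM in infarction and 12.5 ± 2.32 CPM in sham, from 24 and 45 UMIs, too few for the test.

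Of the feedback enzymes, Tnfaip3 encodes A20, which removes ubiquitin from receptor complexes and so ends signalling. Its groups overlapped in microglia-like cells (12.9, 9.21 and 15.6 CPM in infarction, 16.3, 4.77 and 11.4 CPM in sham, adjusted p = 0.520) and in macrophage-like cells (5.03 ± 1.16 and 5.35 ± 1.19 CPM, adjusted p = 0.518). In T or NK cell-like cells it lay at 24.7, 22.2 and 15.6 CPM in infarction and at 8.29, 4.52 and 4.69 CPM in sham, without overlap, but its 34 and 10 UMIs did not pass the filter on low counts.

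Birc3 encodes c-IAP2, which acts in the same receptor complexes. Microglia-like cells had 24.1, 11.9 and 16.2 CPM in infarction and 0.930, 0.823 and 4.43 CPM in sham, and the gene rose by 2.70 ± 0.569 (adjusted p = 0.00704). Sham 3 held 44 of the 51 sham UMIs, and the fold change was 4.32 without it. T or NK cell-like cells had 85.0, 53.4 and 29.6 CPM in infarction and 12.4, 3.39 and 14.1 CPM in sham (2.63 ± 0.496, adjusted p = 0.00468). Macrophage-like cells had 26.9, 17.1 and 23.4 CPM in infarction and 5.32, 5.83 and 21.2 CPM in sham (1.50 ± 0.431, adjusted p = 0.0172). Sham 3 met the infarction range, and the fold change was 2.49 without it, while the call was lost without infarction 3, sham 1 or sham 2 (adjusted p 0.0535 to 0.0689).

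Ptgs2 encodes cyclooxygenase 2, the inducible enzyme of prostaglandin synthesis and a classical target of the factor. In sham microglia-like cells it was close to absent, with 0, 1 and 12 UMIs or 0, 0.165 and 1.21 CPM, while infarction microglia-like cells had 47.3, 30.8 and 34.8 CPM (5.71 ± 0.454, adjusted p = 4.04e-05, and 8.11 without sham 3). In macrophage-like cells 2894 UMIs were counted in infarction and 1 in sham (adjusted p = 0.000211). The ratio was 74.7 with an exact 95% counting interval of 13.4 to 2952, which covers counting error only. Endothelial-like cells already had 81.1, 35.5 and 23.4 CPM in sham, and 233, 107 and 94.7 CPM in infarction. Those groups did not overlap, yet the log2 fold change of 1.79 ± 0.554 was not called by edgeR (adjusted p = 0.0955, and 0.0103 without sham 1). DESeq2 called it (adjusted p = 0.000858). In T or NK cell-like cells infarction had 2.74, 0 and 15.6 CPM and sham 0 UMIs in each library, of 426761 to 885486, which allows up to 3.39 to 7.03 CPM (3 counts per library).

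The prostaglandin pathway around Ptgs2 was counted from a list of 11 genes. Microglia-like cells had 3 higher and 2 lower of 7 tested (median log2 fold change 0.09, against -0.02 over all genes). Of all genes tested there, 32.1% were called higher and 31.2% lower. With so few genes the count says little of the list as a whole. Ptgs1, the constitutive cyclooxygenase, fell by 2.35 ± 0.0944 (adjusted p = 9.87e-08), and the receptor gene Ptger2 rose by 3.53 ± 0.387 (adjusted p = 3.37e-05). Macrophage-like cells had 5 higher and 2 lower of 8 tested, against 28.2% and 25.8% of all genes. Ptgs1 was down there by 1.88 ± 0.280 (adjusted p = 0.000169). In endothelial-like cells 2 of 4 rose, against 6.66% of all genes. These were the phospholipase gene Pla2g4a by 1.48 ± 0.278 (adjusted p = 0.00305) and the synthase gene Ptges by 1.44 ± 0.410 (adjusted p = 0.0325).

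The macrophage-like class was made of different clusters in the 2 groups. All sham cells of the class lay in 1 cluster with Lyve1, Mrc1 and Cxcl13 among its leading genes, the first a marker of macrophages at the borders of the brain, and 49 to 60 cells per infarction library lay there too, against 115 to 134 per sham library. The other infarction cells lay in clusters led by Apoc1, by Arg1 and by Cxcl10, with 0 sham cells. Within the Lyve1 cluster alone 6 of 8 tested members rose, against 13.8% of all genes. Of these, Tnfaip3, Bcl3, Birc3 and Ptgs2 would not have passed the filter on low counts on their sham levels alone. They could thus hardly be called other than higher, and the count is no support for a rise of the members as a group. The comparison was added after seeing the data, and the cluster was formed from the same counts.

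Nfkbia stood there at 1962, 1863 and 2016 CPM in infarction and at 672, 504 and 772 CPM in sham (1.63 ± 0.164, adjusted p = 2.67e-08). Nfkbiz stood at 619, 549 and 777 CPM in infarction and at 157, 87.5 and 118 CPM in sham (2.46 ± 0.195, adjusted p = 9.81e-10). Tnfaip3 stood at 27.1, 25.9 and 40.9 CPM in infarction and at 3.99, 5.83 and 6.23 CPM in sham (2.49 ± 0.403, adjusted p = 4.66e-05). For these inhibitors and A20 the groups lay far apart, although Nfkbiz and Tnfaip3 were not called in the class as a whole. Bcl3 rose by 2.20 ± 0.399 (adjusted p = 0.000190) and Birc3 by 2.29 ± 0.398 (adjusted p = 0.000378, and 3.20 without sham 3). Ptgs2 had 46.5, 45.7 and 54.6 CPM in infarction, from 90 UMIs, and 1 UMI in sham (adjusted p = 2.24e-09), a ratio of 116 with a counting interval of 20.3 to 4634. The subunits differed from these, with Nfkb1 at 146 ± 18.6 CPM in infarction and 112 ± 22.8 CPM in sham (0.42 ± 0.180, adjusted p = 0.0891, and 0.0351 without sham 1) and Nfkb2 at 37.2 ± 15.1 and 34.8 ± 1.16 CPM (adjusted p = 0.821).

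These 6 rises held without each library in turn and with DESeq2. Neutrophil markers were higher there too, 9 of 13 detected in infarction and 4 in sham, at 155 to 474 CPM in infarction and 16 to 32.4 CPM in sham, with Cxcr2, Ltf, Ngp and Retnlg at 0 in both. At that marker share and the level of neutrophil-like cells in the same library, Nfkbia would be 63.7, 12.5 and 17.8 CPM, beside the 1962, 1863 and 2016 CPM measured. Macrophage markers, which these cells carry themselves, were higher too. They summed to 9735, 4969 and 4558 CPM in infarction and to 3266, 3052 and 3885 CPM in sham, with Arg1 at 0 in sham only. No such level was computed for them. The part of RNA from neutrophils or from the other macrophage-like cells in the 6 rises was not tested. Immediate early and heat shock genes summed to 5666 to 7317 CPM in infarction and 7702 to 9575 CPM in sham, lower in every infarction library.

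In the clusters without sham cells Nfkbia and Nfkb1 were below the infarction cells of the Lyve1 cluster. Macrophage-like cells of the Apoc1 cluster had 680, 470 and 616 CPM of Nfkbia and 16.5, 18.9 and 16 CPM of Ptgs2, and those of the Arg1 cluster 1554, 894 and 1202 CPM of Nfkbia and 74.1, 43.4 and 58.0 CPM of Ptgs2. The Cxcl10 cluster, led by interferon-induced genes, had 1226, 665 and 992 CPM of Nfkbia and 23.5 ± 8.04 CPM of Ptgs2. Nfkb1 was 46.2 ± 5.97, 72.7 ± 10.5 and 77.2 ± 3.03 CPM in the Apoc1, Arg1 and Cxcl10 clusters, all below the 146 ± 18.6 CPM of infarction cells in the Lyve1 cluster. The log2 fold change of Nfkb1 was thus negative in the class and positive, though not called, in the 1 cluster that both groups shared.

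**Figure D4:**
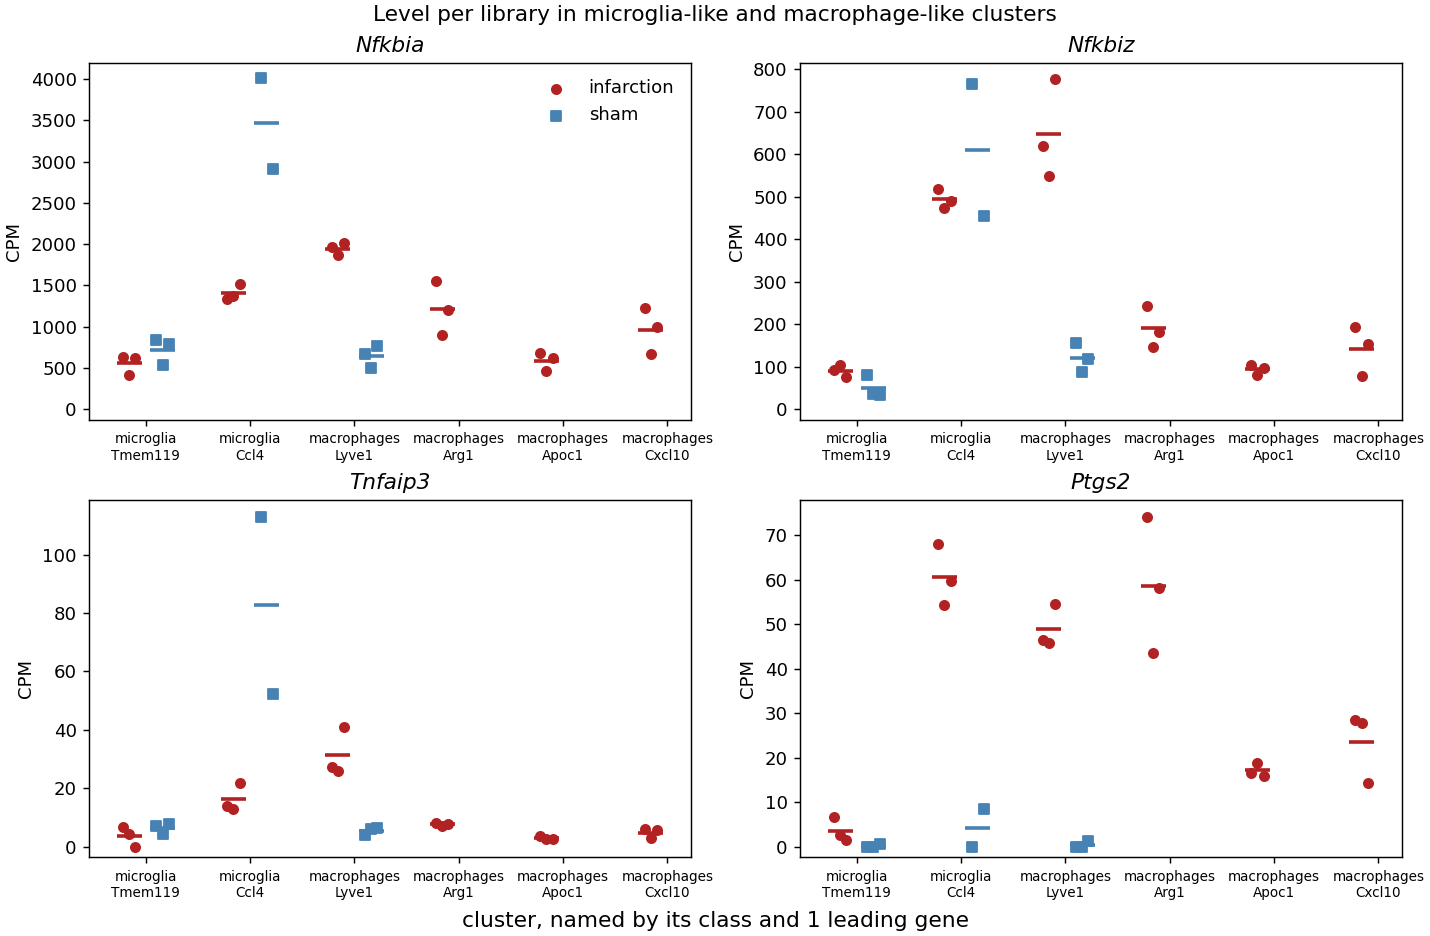
Points are CPM per library of 4 genes in microglia-like and macrophage-like clusters (infarction as red circles, sham as blue squares), with lines at the mean, in clusters with at least 20 cells in that library. In the Lyve1 cluster infarction lies above sham for all 4 genes, while in the Ccl4 microglia cluster 2 sham libraries lie above infarction for Nfkbia and Tnfaip3.

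Microglia-like cells were split as well. The cluster led by Tmem119 and P2ry12, homeostatic microglia genes, held 304, 802 and 1272 sham cells but 21, 181 and 109 infarction cells. There Nfkbia stood at 635, 411 and 625 CPM in infarction and at 837, 535 and 787 CPM in sham (-0.51 ± 0.217, adjusted p = 0.124, and 0.00627 without sham 2). Nfkbiz was at 92.6, 104 and 76.9 CPM in infarction and at 81.7, 35.0 and 34.4 CPM in sham (0.90 ± 0.442, adjusted p = 0.204, and 0.000111 without sham 1). Nfkb1 was the only member called of 4 tested, against 27.6% of genes called in either direction. It fell by 0.38 ± 0.137 (adjusted p = 0.0493), a call lost without any 1 of the 6 libraries (adjusted p 0.0546 to 0.204). Ptgs2 had 5 UMIs in infarction and 5 in sham in this cluster, too few to test. Most infarction UMIs of Ptgs2 in microglia-like cells, 1132 of 1359, lay in a cluster led by Ccl4 and Gpr84, at 68.1, 54.2 and 59.6 CPM.

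That Ccl4 cluster also held 23, 11 and 106 sham cells, and those cells had high feedback transcripts. Nfkbia stood at 1334, 1370 and 1515 CPM in infarction, and at 4012 CPM in sham 1 and 2912 CPM in sham 3. Tnfaip3 stood at 13.8, 13 and 21.8 CPM in infarction, and at 113 CPM in sham 1 and 52.4 CPM in sham 3. Both sham libraries lay above all infarction libraries for these genes, but Ptgs2 was at 0 and 8.52 CPM there. The immediate early and heat shock genes moved with them, 4880 to 6866 CPM in infarction and 25493 and 17346 CPM in sham 1 and sham 3. Whether dissociation plays a part in the sham levels was not tested, and sham 2, with 11 cells, gave no level.

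Whether the effect of infarction differed between the 2 large classes was tested as the interaction of class and group. The rise of Nfkbiz was larger in microglia-like than in macrophage-like cells by 1.60 ± 0.173 (adjusted p = 7.71e-06), and that of Birc3 by 1.44 ± 0.370 (adjusted p = 0.00531, and 0.0632 without replicate 3), 2 of 9 members against 16.1% of genes. For Ptgs2 the difference was -0.43 ± 1.32 (adjusted p = 0.841), an error too wide to tell. Since different clusters fill both classes in the 2 groups, the interaction carries the change of clusters. Macrophage markers in microglia-like cells, 16 of 16 detected in infarction and 15 in sham with Cd163 at 0, summed to 8934 to 14193 CPM in infarction and 126 to 170 CPM in sham, and their part in these values was not tested.

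In T or NK cell-like cells each of the 5 called genes was higher in all 3 infarction libraries than in any sham library. These 5 had already been picked as called higher, and the share of all tested genes without overlap was not counted. Of the other pathway genes on a list of 39, 3 of 22 tested rose there and 0 fell, where 4.86% of all genes were called higher. They were Zc3h12a (2.26 ± 0.385, adjusted p = 0.00109), which encodes the RNase regnase-1 that limits inflammatory mRNA, Tnip1 (0.94 ± 0.227, adjusted p = 0.0139), which encodes a partner of A20, and N4bp1 (0.98 ± 0.261, adjusted p = 0.0257). Neutrophil markers in these cells were 524, 32.6 and 35.9 CPM in infarction and 72.6, 54.2 and 14.1 CPM in sham, with 9 of 13 detected in infarction, 5 in sham, and Cxcr2, Ngp and Retnlg at 0 in both. Macrophage markers, 14 of 16 detected in infarction and 12 in sham with Cd163 at 0 in both, were 465 to 747 CPM in infarction and 16.4 to 102 CPM in sham. Nfkbia at the neutrophil marker share would be 70.4, 2.63 and 2.99 CPM, against 839, 765 and 639 CPM measured. Infarction 1, the library with the most neutrophil markers, was also the highest for Nfkbia, Nfkbiz, Nfkb1, Bcl3 and Birc3, and without it the calls other than that of Nfkb1 held. No such level was computed for the macrophage markers, and the part of RNA from neutrophils or macrophages in these rises was not tested.

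Endothelial-like cells had 7 of 16 tested target genes called higher and 1 lower, where 6.66% of all genes were called higher. The higher ones included Gadd45b (2.38 ± 0.237, adjusted p = 3.15e-05) and Sod2 (2.64 ± 0.306, adjusted p = 0.000405). Markers of other cells moved with these values. Macrophage markers summed to 2547, 9569 and 3376 CPM in infarction and 26.3 to 393 CPM in sham, 13 of 16 and 12 of 16 detected, with Cd163 at 0 in both. Neutrophil markers, 8 of 13 and 7 of 13 detected, summed to 357 to 1146 CPM in infarction and 29.2 to 63.9 CPM in sham. Infarction 2, with the most macrophage markers, had the highest Nfkbiz, and the part of these transcripts in the rise of Nfkbiz was not tested. At the neutrophil marker share Nfkbiz would be 6.31, 4.15 and 1.79 CPM, against 69.7, 117 and 24.3 CPM measured. This leaves out the macrophage markers, which had the larger sums, and no such level was computed for them. Macrophage-like cells themselves had 46689, 36238 and 39731 CPM of these markers in infarction, and 185, 110 and 125 CPM of Nfkbiz.

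Oligodendrocyte precursor-like cells had the lowest levels of the tested classes for Nfkbia, and in infarction 1 and infarction 3 the highest neutrophil markers. Nfkbia stood at 481, 135 and 191 CPM in infarction and at 61.5, 37.7 and 63.9 CPM in sham, and it rose by 2.57 ± 0.506 (adjusted p = 0.00795), or by 1.85 without infarction 1. Neutrophil markers summed to 3423, 176 and 1934 CPM in infarction and 67.1 to 271 CPM in sham. Of 13 markers 11 were detected in infarction and 2 in sham. At that share neutrophil-like cells would carry 460, 14.2 and 161 CPM of Nfkbia, close to the measured level in infarction 1 and infarction 3 and well below it in infarction 2. Macrophage markers summed to 5115, 1632 and 1386 CPM in infarction and to 594, 397 and 934 CPM in sham. Of 16 such markers 14 were detected in infarction and 9 in sham, with Cd163 and Stab1 at 0 in both. Their part in the rise was not tested. Nfkb1 had 34.6, 44.5 and 43.1 CPM in infarction and 24.6, 33.3 and 18.0 CPM in sham (0.96 ± 0.327, adjusted p = 0.0527, and 0.0322 with the replicate number as a block).

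**Figure D5:**
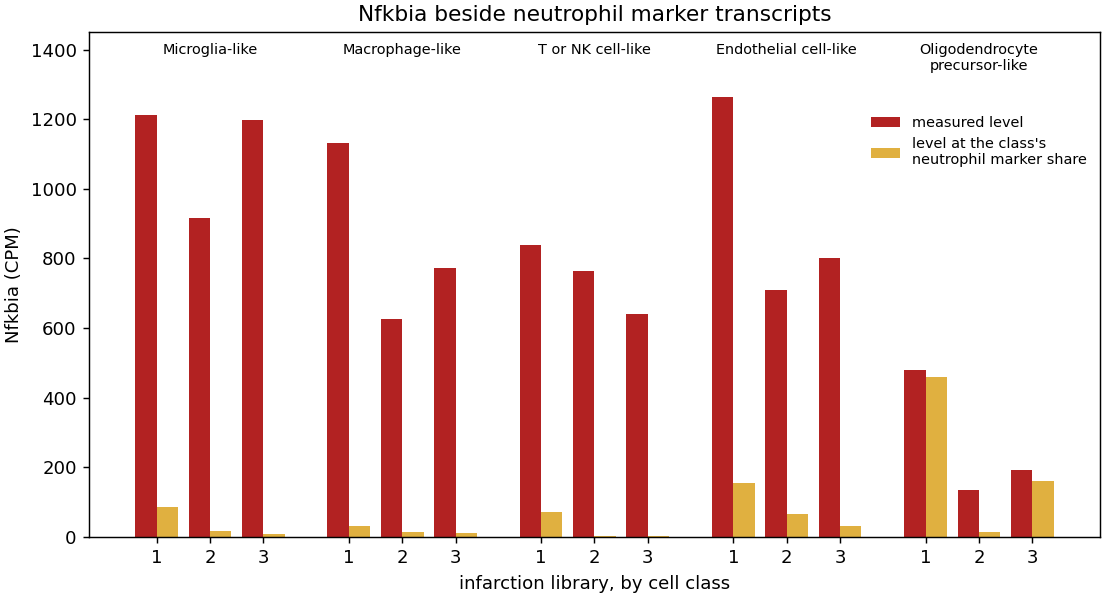
Bars give Nfkbia in CPM in each infarction library of the 5 tested cell classes, the measured level on the left of each pair and, on the right, the level that neutrophil-like cells of the same library would give at the class's neutrophil marker share. The 2 bars are close only in oligodendrocyte precursor-like cells of infarction 1 (481 and 460 CPM) and infarction 3 (191 and 161 CPM).

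Across 76 sums of 1 class in 1 library, from 19 classes or unnamed clusters, the members varied together to different degrees. The sums share libraries and depth, so the correlations are descriptions. Of log2(CPM + 5), Nfkbia and Nfkbiz had the highest Pearson r between members (0.763) and Tnfaip3 and Ptgs2 the lowest (0.313). Among 6030 genes with a mean of at least 20 CPM, the pattern most like Nfkbia was that of Srgn (r = 0.906) and Map3k8 (r = 0.890). Nfkbiz was most like Bcl2a1 (r = 0.862) and Cxcl2 (r = 0.855), Birc3 most like Neurl3 (r = 0.865), Nfkb1 most like Casp1 (r = 0.825) and Ptgs2 most like Sdcbp (r = 0.786). The closest genes to Bcl3 (Napsa, r = 0.778), Tnfaip3 (Cklf, r = 0.774) and Nfkb2 (Vasp, r = 0.755) came next, and Relb, the scarcest member, reached r = 0.671 with Acod1.

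The wider pathway did not move as 1 block within classes. Of 39 other pathway genes, 30 of 38 tested were higher and 3 lower over all cells (median log2 fold change 1.12). In microglia-like cells 7 were higher and 13 lower of 33 (median -0.23). The 4 with the smallest p there all fell, the receptor genes Tlr2 (log2 fold change -0.85 ± 0.0736, adjusted p = 6.91e-06) and Tlr4 (adjusted p = 1.35e-05), their adaptor gene Myd88 (adjusted p = 2.31e-05) and the inhibitor gene Tnfaip8l2 (adjusted p = 2.29e-06). In macrophage-like cells 11 were higher and 7 lower of 36 (median 0.05), with Tlr4 down by 2.36 ± 0.171 (adjusted p = 8.24e-07) and Tax1bp1, which encodes an adaptor of A20, up by 1.23 ± 0.113 (adjusted p = 4.38e-06). Of the target genes, 15 of 22 were higher and 1 lower in microglia-like cells (median 1.16), and 9 of 24 were higher and 4 lower in macrophage-like cells (median 1.27). Over all genes 32.1% were called higher and 31.2% lower in microglia-like cells, and 28.2% higher and 25.8% lower in macrophage-like cells, so the share of higher targets in macrophage-like cells was near the background. Of the immediate early and heat shock genes, 8 of 15 fell and 5 rose in microglia-like cells (median -0.56), and 8 of 15 fell and 1 rose in macrophage-like cells (median -0.82).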

How the data were processed

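The deposited matrices hold raw UMI counts per gene and barcode for each library. Per the submitters' processing notes the authors used Cell Ranger 3.1.0, CASAVA 1.8 and Seurat 2.3.4, and the genome build is not given in the sources used here. Every barcode listed had at least 500 UMIs. The members and gene lists were chosen with earlier results of these data known. Beside the 9 members, the genes named are up to 4 list genes of smallest p per class and the 2 most alike genes per member.

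Of 44011 barcodes, 38685 had at least 500 UMIs, 200 genes and at most 20% mitochondrial UMIs, and 37853 had a Scrublet score of at most 0.25 (scanpy 1.11.5). Scrublet's own threshold marked 0 to 0.033% of infarction cells and was not used. Cells were clustered on 2000 variable genes, 30 components and 15 neighbours at Leiden resolution 1.0, without correction between libraries, and doublets of 2 classes may remain. A cluster was named from at least 3 markers. Counts were summed per library and class and tested with edgeR 4.0.16 (TMM, filterByExpr, group as the only term, checked on simulated data), with calls at an adjusted p under 0.05. In the simulated data, false calls were 3.4% of calls in T or NK cell-like sums and up to 8.95% in microglia-like sums. A log2 change of 1 was called for 11.83% of genes in oligodendrocyte precursor-like, 45.74% in macrophage-like and 78.43% in microglia-like sums, so smaller changes were often missed. DESeq2 1.42.0 was an alternative, as were other filters, other scaling and leaving out each library. Tested class sums held 287044 to 37085969 UMIs. Intervals and floors cover counting error only. The neutrophil marker share is the summed CPM of 13 neutrophil markers in a class divided by that in neutrophil-like cells of the same library. Replicate numbers did not pair libraries over all cells (r of -0.007, 0.014 and 0.062 between same-numbered deviations). In oligodendrocyte precursor-like sums these were 0.136, 0.304 and 0.553.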

Additional observations from a re-analysis of the deposited data

Results flagged for a closer look

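The rise of Nfkbiz after infarction was larger in microglia-like than in macrophage-like cells by 1.60 on the log2 scale, and that of Birc3 by 1.44. Both were singled out because the difference between the classes was itself called. The difference was called for Nfkbiz without each replicate number in turn (1.38 to 1.88) and lost for Birc3 without replicate 3. In the clusters that both groups shared, the order of the values was the other way. Nfkbiz rose by 2.46 in the Lyve1 macrophage cluster. It had 0.90 ± 0.442 in the Tmem119 microglia cluster (edgeR adjusted p = 0.204), against 2.26 in the microglia-like class. The difference between the 2 clusters was not tested.

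Among classes in which the gene passed the filter on low counts, there were a further 3 cases where every infarction library lay on 1 side of sham in 1 class and on the opposite side in another. The difference was not tested in any of them, and the share of all genes with such opposite sides was not counted. Nfkb1 was lower in macrophage-like cells and higher in oligodendrocyte precursor-like cells (log2 fold changes differing by -1.48) and in T or NK cell-like cells (differing by -1.27). Nfkb2 was lower in macrophage-like and higher in T or NK cell-like cells (differing by -1.56), though it was called in neither class.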

How the results depend on the processing

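Across all alternatives, refits of a member's log2 fold change kept direction and side of the threshold 558 times, passed it only in the alternative 31 times, lost it 29 times and reversed 16 times. Genes called in endothelial-like cells numbered 812, and 1458 without a filter on low counts or 541 with a doublet score of at most 0.15. T or NK cell-like cells gave 355, and 599 without the filter, 228 with DESeq2 and 232 to 347 with 1 library left out (232 without infarction 2). Oligodendrocyte precursor-like cells gave 1901, and 1089 to 2188 with 1 library left out (1089 without sham 1, 1170 without infarction 1, 1232 without infarction 2). The next 2 settings were added after seeing the data and sum fewer cells. Macrophage-like cells gave 5648, and 1559 in the Lyve1 cluster alone (1516 with the replicate block, 893 with DESeq2). Microglia-like cells gave 6603, and 2057 in the Tmem119 cluster alone (963 to 2095 with 1 library left out, 963 without infarction 2). In the Lyve1 cluster Nfkb1 had 0.42 and Nfkb2 0.10, against -0.51 and -0.32 in the class (0.42 and 0.076 with the replicate block there), and Nfkb2 there ran from -0.045 to 0.39 with 1 library left out. In the Tmem119 cluster Nfkbia had -0.51 and Nfkb1 -0.38, against 0.33 and 0.05 in the class. Nfkb2 there had -0.011 with the replicate block, -0.027 with DESeq2 and -0.30 to 0.19 with 1 library left out. Nfkb1 in microglia-like cells was -0.0067 with the replicate block, -0.096 at 10% mitochondrial UMIs and -0.20 to 0.19 with 1 library left out. With 1 library left out, Nfkb1 in endothelial-like cells was -0.36 to 0.13, Tnfaip3 in microglia-like cells -0.069 to 0.56, and, without 1 replicate number, the Tnfaip3 difference between classes -0.53 to 0.53. Apart from Nfkb1 in macrophage-like cells, these reversed members were not called in the class. The cause was not tested.

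The replicate block added calls for Ptgs2 in endothelial-like cells (adjusted p = 7.97e-05), Nfkbiz in macrophage-like (0.000716), Nfkbia in microglia-like (0.0192), Nfkb1 in oligodendrocyte precursor-like (0.0322) and Nfkb2 in T or NK cell-like cells (0.0310), and changed no other member's call in a class. In the Tmem119 cluster it added Nfkbia and Nfkbiz and lost Nfkb1. Endothelial-like and oligodendrocyte precursor-like sums of 42 to 216 cells gave too few UMIs of Relb, Tnfaip3, Bcl3 and Birc3 for a test.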

Other observations

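Neutrophil-like cells reached 20 in 1 sham library only, so they entered no comparison. The 44 such cells of sham 2, with 99169 UMIs in all, had 343 CPM of Nfkbia, against 6750, 4378 and 4896 CPM in infarction. Their Birc3 level was 30.3 CPM, from only 3 UMIs, against 102 to 119 CPM in infarction, while their Ptgs2 level was 202 CPM, against 233 to 291 CPM. Neutrophil markers summed to 156319 CPM in sham 2 and to 50221 to 58757 CPM in infarction. Immediate early and heat shock genes summed to 21751 CPM in sham 2 and 8076 to 9490 CPM in infarction. In the 13 neutrophil-like cells of sham 1 and the 12 of sham 3, 9 and 81 Nfkbia UMIs were counted, of 28409 and 45440 UMIs in all. The share was larger in sham 3 than in sham 1 or sham 2, so the level of sham 2 does not stand for all sham libraries.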
